A study of Mus musculus with 2 samples.

Results

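Cdx1, Cdx2, Cdx4, Evx1 and Evx2, the Cdx and Evx genes, were read in day 6 embryoid bodies, the floating aggregates in which mouse embryonic stem cells start to form germ layers. They were picked by name, with earlier results of these data known, as the 3 Cdx activators of Hox genes and the 2 Evx genes that lie beside the HoxA and HoxD clusters. They are 5 of the 20207 genes in the deposited gene tables. The cultures carried inducible short hairpin RNAs against HoxBlinc, a long noncoding RNA of the HoxB cluster. In one group, hairpin cultures received 2 ug/ml doxycycline from day 2. In the other group, cultures with the same hairpins were left without doxycycline. Each group was a single library that pooled RNA of 2 hairpins. The labels name the stem cell lines R1/E and CGR8 MHC-GFP but not which of them gave each library, and they name no culture with doxycycline and no hairpin, so hairpin and drug cannot be told apart. Gene counts summed to 24924921 with doxycycline and 37046449 without it. With 1 library per group there was no replicate check, no test and no p-value, and every interval below covers counting error only.

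Cdx proteins are homeodomain transcription factors related to caudal of the fly. Wnt, FGF and retinoic acid signals switch their genes on at the posterior end of the embryo, where they activate Hox genes, keep the body axis growing and help to form the first blood. Cdx2 also acts in trophectoderm and intestine. Evx proteins are related to even-skipped of the fly. Evx1 is used in the primitive streak and later in spinal interneurons, and Evx2 in limbs beside Hoxd13.

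Cdx2 carried most of the Cdx reads, and it was nearly lost in the library with doxycycline. Cdx2 (chromosome 5, 148112476 to 148118825 in the authors' mm9 coordinates) had 10 counts with doxycycline and 266 without. Scaled by the total gene counts of its library (CPM), that was 0.401 with doxycycline (exact 95% interval 0.192 to 0.738) and 7.18 without (6.34 to 8.10). The intervals of both libraries stood well apart, and the CPM was 17.9-fold lower with doxycycline (9.58 to 37.8). In RPKM, which also divides by gene length, the level was 0.101 with doxycycline and 2.02 without. Cdx2 thus lay above 33.7% of all genes with doxycycline and above 51.7% without. Its ratio was the 34th lowest among the 11063 genes that reached 1 RPKM in either library, taken on the log2(RPKM + 0.5) scale.

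Cdx1 (chromosome 18, 61178517 to 61195853), which acts with Cdx2 in vertebral patterning and in the intestine, was scarce in both libraries. It had 5 counts with doxycycline and 17 without, at 0.201 CPM (0.0651 to 0.468) and 0.459 CPM (0.267 to 0.735). These intervals overlap, and the fold lower of 2.29 had an interval of 0.810 to 7.93 that includes 1. Cdx4 (chromosome X, 100516737 to 100525563), the member best known for Hox activation in blood progenitors, had 0 counts in both libraries. A floor of 3 counts stood at 0.120 CPM with doxycycline and 0.0810 CPM without, so Cdx4 was not detectable at this depth.

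Evx1 was seen in the library without doxycycline only, as far as these depths reach. Evx1 (chromosome 6, 52263492 to 52268372) had 0 counts with doxycycline and 49 without, the 49 counts being 1.32 CPM (0.979 to 1.75). Against the floor of 3 counts it was at least 11.0-fold lower with doxycycline, while the exact 95% interval of the fold, the kind given for the other genes, starts lower, at 8.60. Of the 12387 genes with 49 counts or more without doxycycline, 13 (0.105%) had 0 with it, Evx1 among them. GENCODE M21 places an antisense RNA gene, Evx1os, over Evx1. Whether the libraries kept strand is not stated, so reads of Evx1 and Evx1os cannot be told apart. Evx2 (chromosome 2, 74493673 to 74497476) had 0 counts in both libraries.

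**Figure D1:**
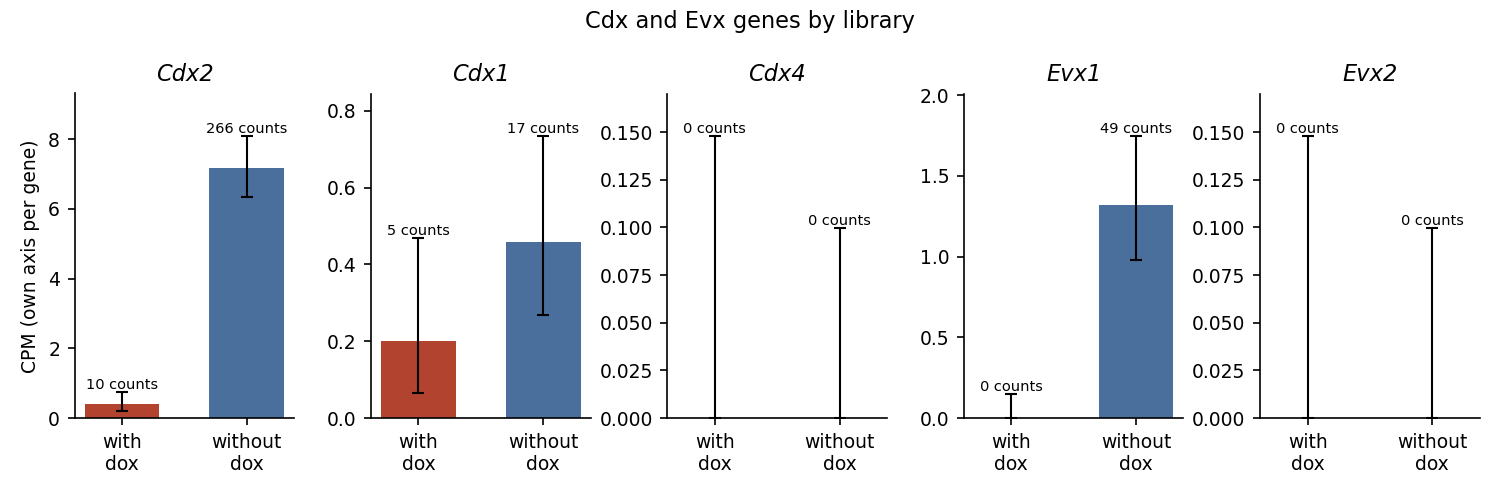
Level in CPM (own axis per gene) of the 5 genes, with doxycycline on the left and without on the right of each panel. Bars are the single library of each group, lines are exact 95% Poisson intervals, and the read counts stand above. Cdx2 had 10 counts with and 266 without doxycycline, Evx1 had 0 and 49, and Cdx4 and Evx2 had no reads.

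Mates of a pair may have been counted singly, so ratios were also computed with all counts halved. The interval of the Cdx2 fold then widened to 7.48 to 56.0, that of Cdx1 to 0.537 to 26.0, and Evx1 was at least 5.38-fold lower against the floor, with an interval that starts at 4.05. By a rule that asks for the halved-count interval to lie wholly below 1, Cdx2 and Evx1 were called and Cdx1 was not. The same rule called 23.0% of the 17266 genes with reads as lower with doxycycline and 15.1% as higher. Of genes with at least 10 counts in a library, 9.65% had a CPM past 2-fold lower with doxycycline and 1.50% past 2-fold higher. The 3 members with that many counts, Cdx2, Cdx1 and Evx1, were at least 2-fold lower. Since the members were chosen with this contrast known, nothing is read from those shares.

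Low-level reads were not equal between the libraries, which bears on the scarce members. Chemosensory receptor genes, which sense odours, tastes and pheromones, were taken as a gauge: 80 of 1270 had reads with doxycycline and 670 without. Their 10% trimmed mean was 0 RPKM with doxycycline and 0.0168 without. Over the length of each gene, the level without doxycycline corresponds to 1.80 of the 17 Cdx1 counts, 2.96 of the 49 Evx1 counts and 2.21 of the 266 Cdx2 counts. In the library without doxycycline, 8 receptor genes reached the RPKM of Cdx1, 5 that of Evx1 and 1 that of Cdx2. In the library with doxycycline, 14 reached that of Cdx1 and 10 that of Cdx2.

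The order of the members per length was the following. With doxycycline Cdx2 stood at 0.101 RPKM and Cdx1 at 0.0619 RPKM, a ratio of 1.63 (0.508 to 6.08) within counting error, and the other 3 genes had no reads. Without doxycycline Cdx2 stood at 2.02 RPKM, 7.28 times Evx1 at 0.278 RPKM (5.35 to 10.1). Evx1 was 1.75 times Cdx1 at 0.159 RPKM (0.992 to 3.25), which did not differ beyond counting error. Cdx2 took 66.7% of the 15 Cdx counts with doxycycline (Clopper-Pearson 95% interval 38.4 to 88.2%) and 94.0% of the 283 without (90.6 to 96.5%). The fold lower of Cdx2 was 7.71 times that of Cdx1 (1.86 to 28.4), though with halved counts this interval went from 0.539 to 48.3 and included 1.

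The stretches shown here are the 250 bases before the annotated start of Cdx2 and Evx1, the members whose halved-count interval lay below 1, and of Cdx4, which had no reads. That of Cdx1 is not shown, and no motif result is given for it. They were read from the RefSeq promoter table (GRCm38.p6, a later build than mm9, gene strand, 5′ to 3′). Cdx2 is at chr5:147307250-147307499 on the minus strand, Evx1 at chr6:52313248-52313497 on the plus strand and Cdx4 at chrX:103321148-103321397 on the plus strand. Capitals mark the octamer ATGCAAAT, or its reverse complement ATTTGCAT, a motif bound by POU-domain factors.
Cdx2: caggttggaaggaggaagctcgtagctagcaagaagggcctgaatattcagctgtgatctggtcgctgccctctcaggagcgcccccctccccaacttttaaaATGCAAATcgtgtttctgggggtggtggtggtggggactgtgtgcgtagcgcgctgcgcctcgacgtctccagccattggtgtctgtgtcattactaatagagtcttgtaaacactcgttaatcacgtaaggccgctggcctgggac
Evx1: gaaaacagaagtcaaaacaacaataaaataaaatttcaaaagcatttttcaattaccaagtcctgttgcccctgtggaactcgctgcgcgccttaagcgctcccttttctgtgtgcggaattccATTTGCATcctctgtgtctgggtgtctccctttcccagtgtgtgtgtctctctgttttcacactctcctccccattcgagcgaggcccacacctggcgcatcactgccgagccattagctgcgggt
Cdx4: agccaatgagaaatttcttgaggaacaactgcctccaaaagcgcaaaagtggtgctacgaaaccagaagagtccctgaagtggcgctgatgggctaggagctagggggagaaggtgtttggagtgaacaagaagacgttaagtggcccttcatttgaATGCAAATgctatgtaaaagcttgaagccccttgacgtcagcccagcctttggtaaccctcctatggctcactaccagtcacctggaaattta

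The octamer begins 147 bases before the gene start in Cdx2 and 93 bases before it in Cdx4, on the gene's own strand. In Evx1 it begins 126 bases before the start, on the opposite strand. It was looked for after the sequences had been seen, on both strands, and 1.60% of the 32851 promoter windows of this length hold it. It is not in the window of Evx2, and the windows include the silent Cdx4 as well as the detected genes. Motifs chosen for the known inputs were also searched on both strands. The Wnt-effector cores CTTTGA and CTTTGT (held by 27.6% of windows), the retinoic acid receptor half-site AGGTCA (14.0%) and the caudal core TTTATG (10.8%) were in none of the 4 windows of Cdx2, Cdx4, Evx1 and Evx2. TATAAA (12.4%) was in that of Evx2. CpG sites numbered 13 in Cdx2, 10 in Evx1, 14 in Evx2 and 5 in Cdx4, where the median window holds 6.

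The Hox clusters, which Cdx proteins activate and beside which the Evx genes lie, gave a mixed picture next to the members. The CPM ratio of Cdx2 could not be told from that of the HoxB sum within counting error, the fold lower of Cdx2 being 1.82 times that of HoxB (0.779 to 4.50). It was 2.63 times the fold of HoxD (1.06 to 6.81, or 0.694 to 11.0 with halved counts) and 9.50 times that of HoxC (4.43 to 22.2). The HoxA sum was not lower with doxycycline, at 4.73 CPM against 3.51 without, and the fold lower of Cdx2 was 24.0 times that of HoxA (12.1 to 53.1). Evx1 stands at the posterior end of HoxA, and the exact 95% interval of its fold lower, divided by that of the cluster, starts at 11.2 (5.11 with halved counts). The HoxA sum, of 118 counts with doxycycline and 130 without, was spread unevenly over the genes of the cluster. Folds set against this sum thus need not hold against single genes of the cluster. Hoxa13, the Hox gene nearest to Evx1, had 0 counts with doxycycline and 9 without, so the cluster's posterior end was hardly read in either library. No Hox gene reached the RPKM of Cdx2 without doxycycline, the highest there being Hoxb2 at 0.591.

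**Figure D2:**
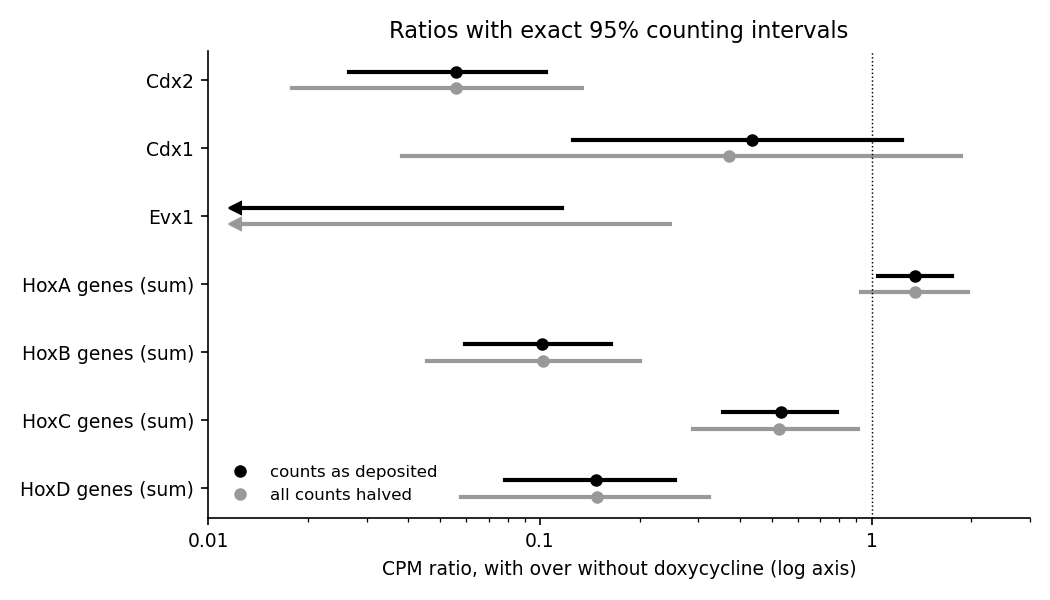
CPM ratio with over without doxycycline (log axis) of the 3 members with reads and of the summed counts of each Hox cluster. Points are ratios and lines exact 95% counting intervals, in black for counts as deposited and in grey with all counts halved, and arrows mark Evx1, which had 0 counts with doxycycline. The intervals of Cdx2, Evx1, HoxB, HoxC and HoxD lie left of 1, that of Cdx1 includes 1, and the HoxA sum lies at 1.35.

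The remaining ParaHox genes, sisters of Cdx that mark foregut and forebrain, were almost silent. Gsx2 had 2 counts with doxycycline and 1 without, Pdx1 had 0 and 5, and Gsx1 had 0 in both. Cdx2 shares a chromosomal cluster with Pdx1 and Gsx1, and Cdx2 was thus the only gene of that cluster above 5 counts in either library.

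Few genes that flank the members were past 2-fold. Of the 40 genes taken as the 4 nearest on each side, 17 reached 1 RPKM in a library, 1 was at least 2-fold lower with doxycycline and 0 were higher. Over all 11063 genes so measured, 2.64% were lower and 0.262% higher by that measure. The flanking gene that was lower is Pdgfrb, a PDGF receptor of mesenchyme 8.95 kb from Cdx1. Pdgfrb reached 1 RPKM only without doxycycline, so that limit set its direction. It stood at 0.868 RPKM with doxycycline and 3.22 without, while Slc6a7, a proline transporter 4.66 kb away on the other side of Cdx1, had 19 and 18 counts. Some flanking genes below 1 RPKM also differed in CPM. Csf1r, the next gene past Pdgfrb, had 34 and 120 counts, 2.37-fold lower with doxycycline (1.61 to 3.59). Creb5, farther out beside Evx1 and named after its value was seen, had 94 and 64, 2.18-fold higher (1.57 to 3.05). Beside Cdx2, Pdx1 and Prhoxnb had 0 counts with doxycycline and 5 and 1 without, and the cytokine receptor gene Flt3 had 4 and 10. Hibadh, an enzyme of valine breakdown and the first gene past Evx1, was at 15.1 RPKM with and 18.0 without doxycycline. Lnp, which encodes an endoplasmic reticulum protein beside Evx2, was at 3.25 and 3.71 RPKM, and Hoxd13 on its other side had 5 and 11 counts. Near Cdx4, Chic1 was at 4.21 and 3.33 RPKM.

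**Figure D3:**
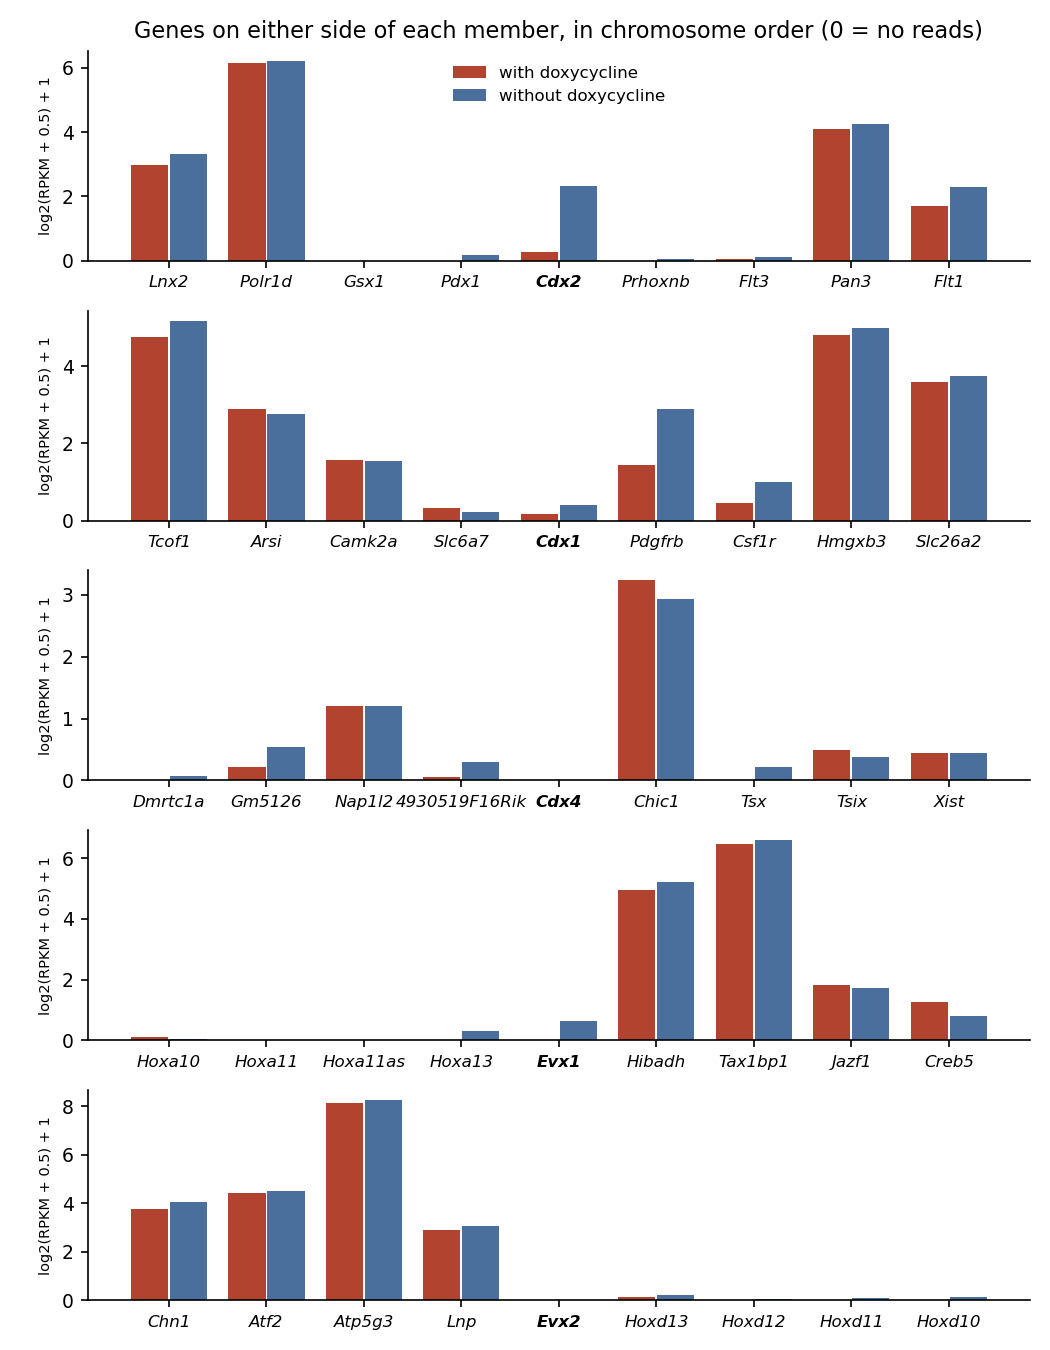
Level of each member (bold) and of its 4 nearest genes on either side in chromosome order, as log2(RPKM + 0.5) + 1, so that 0 means no reads. Red bars are the library with doxycycline and blue bars the library without. Among measured neighbours Pdgfrb, next to Cdx1, is at least 2-fold lower with doxycycline.

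The genes of most like level in both libraries were found by distance over the 2 values of log2(RPKM + 0.5), so likeness rests on 2 libraries. For Cdx2 these were Rgs5, a regulator of G-protein signalling in pericytes, Hey2, a Notch target of heart and vessels, and Msx1, a homeobox target of BMP. Rgs5 was at 0.0478 RPKM with doxycycline and 1.96 without, Hey2 at 0.137 and 1.80, and Msx1 at 0.191 and 2.07. For Evx1 they were Saa3, Gimap4 and Grap, each with 0 counts with doxycycline and 9, 31 and 27 without. For Cdx1 they were Akap6, 2310033E01Rik and Bhmt2, which, like Cdx1, lay below 0.2 RPKM in both libraries.

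**Figure D4:**
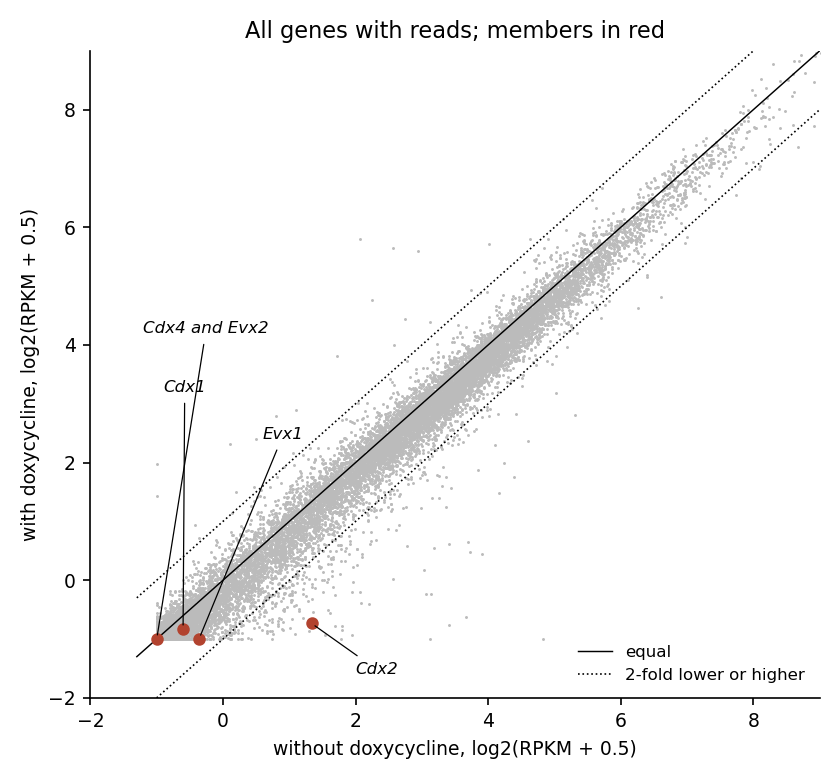
Level of every gene with reads, as log2(RPKM + 0.5), with doxycycline (vertical) against without (horizontal). The solid line marks equal levels, dotted lines a 2-fold difference, red points the members, and 90 genes beyond the axis end of 9 are not drawn. Cdx2 lies below the lower dotted line, while Cdx1, Evx1, Cdx4 and Evx2 lie in the corner of lowest levels.

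Signals known to switch on Cdx genes were then read from 4 lists of Wnt, FGF, retinoic acid and BMP genes. Of their 40 measured genes (1 RPKM or more in a library, out of 49 found) 12 were at least 2-fold lower with doxycycline and 1 was higher, against 2.64% and 0.262% of all genes. Of the lower genes, Wnt5a, Fgf3, Fgf8, Etv4, Cyp26c1, Rarb and Bmp5 reached 1 RPKM only without doxycycline, so that limit set their direction. It likewise set that of the higher gene, Aldh1a2, which reached 1 RPKM only with doxycycline. Fgfr2, Crabp1, Cyp26a1, Id1 and Id2 reached 1 RPKM in both libraries. Over all genes measured, the median log2 ratio was -0.18 on this scale and -0.03 in CPM. In bulk libraries, fewer cells of a type and less RNA per cell cannot be told apart.

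In the Wnt list 1 of 7 measured genes was lower, with a median of -0.29. It was Wnt5a, a ligand of the elongating axis, at 0.238 RPKM with doxycycline and 1.61 without. Lef1, a Wnt effector, was at 0.872 and 1.49 RPKM, Axin2, a feedback target, at 3.70 and 4.65, and Ctnnb1, beta-catenin, at 258 and 332. Wnt3a and Wnt8a, the posterior ligands nearest to Cdx control, were below the measured range with 2 and 6 counts with doxycycline and 19 and 28 without, and were picked for mention after their values were seen.

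In the FGF list 4 of 11 measured genes were lower and 0 higher, with a median of -0.83; with a pseudocount of 1 RPKM in place of 0.5 the count was 1. Fgf3 was at 0.0906 RPKM with doxycycline and 1.08 without, and Fgf8, the main ligand of the streak, at 0.704 and 2.60. Etv4, a transcriptional readout of FGF signalling, was at 0.232 and 1.45, and the receptor Fgfr2 at 4.37 and 9.29. Fgf3, Fgf8 and Etv4 thus lay below 3 RPKM in both libraries. By the halved-count interval 10 genes of the whole list were lower and 2 higher, against 23.0% and 15.1% of all genes with reads. Among the higher was the ligand Fgf5, at 6.83 RPKM with doxycycline and 3.90 without, named after its value was seen. Its CPM was 1.96-fold higher (1.76 to 2.19).

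In the retinoic acid list 4 of 12 measured genes were lower and 1 higher, with a median of -0.28. Crabp1, a retinoic acid carrier, was at 6.48 RPKM with doxycycline and 39.1 without. The breakdown enzymes Cyp26c1, at 0.264 and 3.74, and Cyp26a1, at 4.59 and 11.8, were lower too, as was the receptor Rarb, at 0.710 and 2.51. Aldh1a2, the synthesis enzyme, was the higher gene, at 1.70 and 0.598, and was named after its value was seen. With a pseudocount of 1 RPKM 0 genes of this list passed 2-fold higher, and with 0.1 RPKM, or centred on the median ratio, 2 did. The second was Dhrs3, a retinal reductase, with 310 counts with doxycycline and 180 without, a CPM 2.56-fold higher (2.12 to 3.09).

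In the BMP list 3 of 10 measured genes were lower and 0 higher, with a median of -0.36. The ligand Bmp5 was at 0.368 RPKM with doxycycline and 3.34 without, and the target genes Id1, at 35.9 and 83.3, and Id2, at 12.7 and 28.9, were lower too. Id3 was at 63.6 and 124.7, within 2-fold on the scale used.

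Axial progenitor and tail bud genes, the usual setting of Cdx2 and Evx1 in the embryo, gave few differences past 2-fold. Of 10 measured genes 0 were at least 2-fold lower and 1 was higher, against 2.64% and 0.262% of all genes, with a median of -0.23. The higher gene was T, brachyury, at 4.79 RPKM with doxycycline and 0.909 without, opposite in direction to Cdx2. T reached 1 RPKM only with doxycycline, so that limit set its direction. Sox2 was at 42.5 and 55.8, Greb1 at 2.30 and 4.33 and Fst, follistatin, at 1.87 and 2.83. The other 6 of the 16 genes found lay below 1 RPKM in both libraries, as Evx1 did, and were named after their values were seen. Nkx1-2 had 0 counts with doxycycline and 14 without, Epha5 had 1 and 11, and Tbx4 had 27 and 88 on differing gene models. Tbx6 had 29 and 41, Hes7 had 5 and 4 and Msgn1 had 2 and 0. By the halved-count interval, 5 genes of the whole list were lower and 3 higher, against 23.0% and 15.1% of all genes with reads. A difference between the list and the members was not tested.

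Genes downstream of Cdx and markers of cell types that use Cdx2 were read from further lists. Of all genes measured, 2.64% were at least 2-fold lower and 0.262% higher. In the blood list 4 of 6 measured genes were lower and 0 higher (median -1.90). Besides 2 embryonic globins these were Kdr, the VEGF receptor of blood and vessel progenitors, at 0.258 RPKM with doxycycline and 4.11 without, and Lmo2, a cofactor of blood formation, at 0.314 and 1.38. All 6 measured blood genes reached 1 RPKM only without doxycycline, so that limit set the direction of their ratios. That direction is not read as a result. In the intestinal list 4 of 4 measured genes were lower (median -1.67), with 10 of 14 members below the measured range. The 4 are Hnf4a, at 0.0596 and 1.34 RPKM, Gata4, at 0.701 and 3.56, Vil1, at 0.111 and 1.37, and Apoa1, at 0.132 and 1.34, all of which yolk sac endoderm also uses. These 4 also reached 1 RPKM only without doxycycline, so their direction was set by the limit and is not read as a result. The other 10 were named after their values were seen. Anpep, a brush border peptidase, had 98 counts with doxycycline and 166 without, a CPM ratio of 0.877 (0.676 to 1.13), and Krt20, an epithelial keratin, had 33 and 48, a ratio of 1.02 (0.635 to 1.63). Lgals4 had 11 and 21, also with an interval that includes 1. The rest were nearly unread, with 1 and 7 counts for Lct, 2 and 0 for Fabp2, 0 and 3 for Cdh17, 0 and 2 for Isx, 0 and 1 for Mep1a, and none in either library for Guca2a and 2010204N08Rik.

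Trophoblast markers were lower in 2 of 11 measured genes and higher in 0, with a median of -0.46 and a summed level of 1099 RPKM with doxycycline and 1351 without. Most of that sum was Krt8, at 559.5 and 692 RPKM, and Krt18, at 500.2 and 576, keratins that many simple epithelia use. Hand1, which extraembryonic mesoderm uses as well, was at 0.855 and 14.4 RPKM, and Esx1, a placental homeobox gene, at 1.76 and 5.30. The keratin gene Krt7 was at 19.4 and 37.6 and Tcfap2c, a trophoblast transcription factor, at 7.46 and 12.3. Extraembryonic mesoderm markers were lower in 4 of 7 (median -1.62, summed level 89.3 and 122.0 RPKM), with no member at 0 in either library. The broadly used Ahnak, at 51.6 and 48.2 RPKM, gave the largest part of that sum. Among the lower genes Foxf1a, a forkhead gene of allantois and gut mesenchyme, was at 0.183 and 2.57 and the T-box gene Tbx20 at 0.508 and 5.43. Hand1, Foxf1a and Tbx20 reached 1 RPKM only without doxycycline, so that limit set their direction. Postn, the other lower gene, reached 1 RPKM in both libraries. The gene model of Tbx20 differs between the tables, and its 95 counts with doxycycline and 599 without (3.81 and 16.2 CPM) stand closer together than its RPKM. Mesodermal regulators were lower in 2 of 3 measured genes, Foxc1 at 0.667 and 2.28 RPKM and Pdgfra at 0.813 and 3.76, also on differing gene models. Tcf15 was at 0.720 and 1.65. All 3 measured mesodermal genes reached 1 RPKM only without doxycycline, so that limit set their direction. Of all genes measured, 2.64% were at least 2-fold lower and 0.262% higher.

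Fibroblast markers, which bear on the irradiated feeder cells used before differentiation, were lower in 4 of 7 measured genes (median -1.29, summed level 53.5 RPKM with doxycycline and 98.4 without, no member at 0). By the same measure 2.64% of all genes were lower and 0.262% higher. Col3a1 and Postn, matrix genes, were at 1.04 and 1.11 RPKM with doxycycline and at 4.16 and 4.46 without, and Twist2 and Pdgfrb were the others. Pdgfrb reached 1 RPKM only without doxycycline, and the other lower genes reached it in both libraries. Most of the sum was Col1a2, at 29.95 and 51.5, and Col1a1, at 16.0 and 26.2. The 3 members below the measured range had few reads and were named after their values were seen. Dcn had 2 counts with doxycycline and 1 without, Lum 2 and 6, and Thy1 15 and 34. The part of the fibroblast markers in the lower level of Cdx2 and Evx1 was not tested, nor was that of the extraembryonic mesoderm markers. The embryoid body markers were all measured, 14 of 14, and 3 were lower and 1 higher. Kdr and Gata4 were lower, as was Pax6 at 0.195 and 1.38 RPKM, and T was higher. Kdr, Gata4 and Pax6 reached 1 RPKM only without doxycycline and T only with it, so that limit set their direction.

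**Figure D5:**
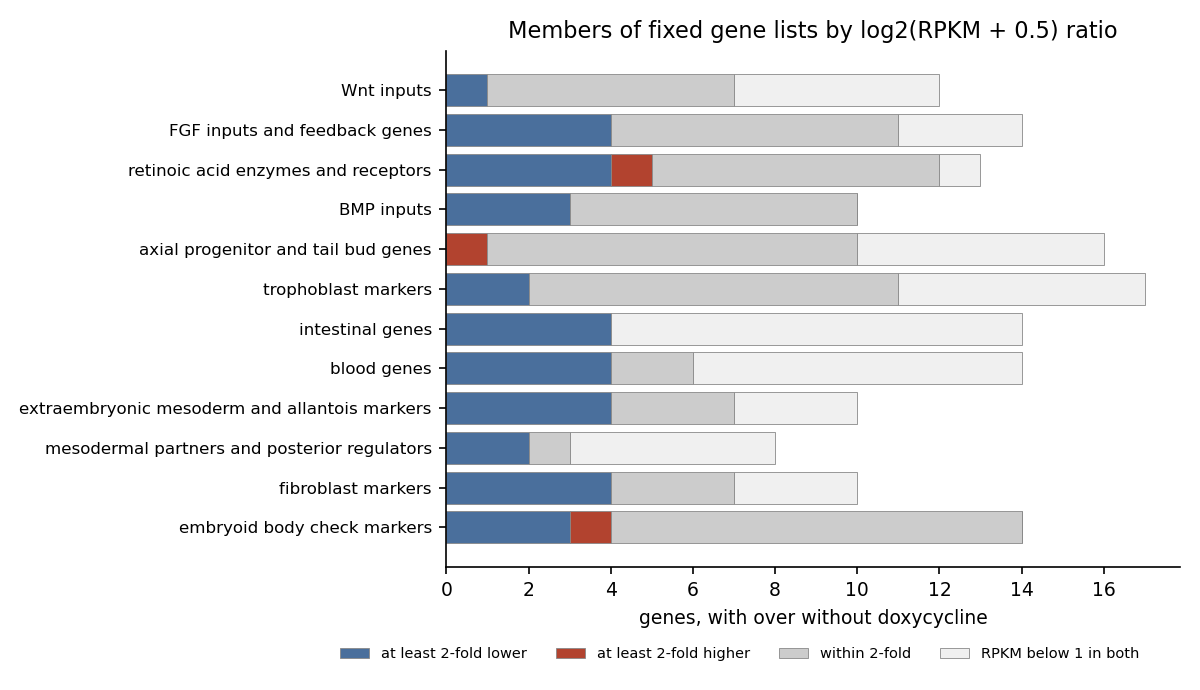
Number of genes in each list (horizontal axis) that were at least 2-fold lower (blue) or higher (red) with doxycycline, within 2-fold (grey), or below 1 RPKM in both libraries (pale). The FGF and retinoic acid lists each hold 4 lower genes, and the axial progenitor list holds 1 higher and 0 lower.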

How the data were processed

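Paired-end reads of 2 pooled libraries were processed by the submitters, whose processing notes name Bowtie2 and mm9. The counting program and annotation were not given in the sources used here. The deposited tables hold, per the file headers, an RPKM, an estimated count, a z-score (a score not used here) and an RMS-normalized RPKM, a ratio to the library's root mean square, for each gene. The authors' counts were not whole for 825 genes with doxycycline and 1062 without, and were rounded. More genes had 2 counts than 1 (603 and 296 with doxycycline, 846 and 583 without), so all counts were also halved.

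Library tables were joined by gene name, and 237 genes with differing gene models were left out of count ratios. CPM used total gene counts. Ratios are with over without doxycycline, with exact conditional binomial 95% intervals, and a fold lower is the inverse. Folds were compared in 9 pairs by conditional odds ratios. With 1 library per group, called means past 2-fold. The members and the lists, with 191 genes found, were chosen with earlier results of these data known. Named genes were the members, 4 per list of largest absolute ratio, flanking genes and the 3 nearest in level, with exceptions stated. The count-ratio intervals, the 2-fold calls and the odds-ratio intervals were checked on simulated data, and the other steps were not. Python 3.11.15, scipy 1.17.1, edgeR 4.0.16 and DESeq2 1.42.0 (scaling factors) were used. One Hox gene is not reported singly here.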

Additional observations from a re-analysis of the deposited data

How the results depend on the processing

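The folds of Cdx2 and Cdx1 stayed within their counting intervals, and kept their direction, under all 8 alternatives of scaling, halving and table. Cdx2 ranged from 17.1-fold lower with TMM factors to 23.6-fold with the RMS-normalized RPKM, and Cdx1 from 2.19 to 3.02. Evx1, at least 11.0-fold lower against the floor, was at least 5.38-fold lower with all counts halved and 10.5 to 14.5-fold under the other scalings. Genes at least 2-fold lower numbered 292, with 178 at a pseudocount of 1, 114 at an RPKM of at least 5 and 193 when centred on the median ratio. Their number was 406 at a pseudocount of 0.1 and 327 with no filter on low values. Genes at least 2-fold higher numbered 29, with 46 at a pseudocount of 0.1, 18 at an RPKM of at least 5 and 50 when centred, so the higher share of calls was 9.03% uncentred and 20.6% centred. In the 4 input lists together, 12 lower genes became 5 at an RPKM of at least 5. The 1 higher gene became 2 at a pseudocount of 0.1 and when centred, and 0 at a pseudocount of 1 and at an RPKM of at least 5. The cause of these shifts was not tested beyond the change of genes measured. Of 150 counts recomputed for single lists, 19 moved by over 1.5 times. No paired analysis was possible because each group held a single library with no shared replicate numbers. Depth limits Cdx4 and Evx2 to the floor.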

Other observations

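The 13 genes with 0 counts with doxycycline and 49 or more without, a limit set after the Evx1 count was seen, hold genes of several tissues. Besides Evx1, the globins Hbb-bh1 and Hba-x and the heart factor Nkx2-5, they include Col9a1, a cartilage collagen, with 172 counts without doxycycline, and Wnt2, a Wnt ligand of heart and lung mesoderm, with 76. Erg, an ETS factor of endothelium, had 65, Dpf3, a chromatin factor of heart and muscle, 53, and Vgll2, a muscle cofactor, 52. Sphkap had 147, Grap2 and Ptgdr 72 each, and the kinase gene Alpk2 52.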
